A study of Homo sapiens with 12 samples.

Results

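The 39 genes described here encode the enzymes that make cholesterol and fatty acids, together with the proteins that control them through the sterol regulatory element-binding proteins (SREBPs). They were chosen by symbol, from textbook pathway membership and with earlier results of these data known, out of the 24528 genes of the count table. All 39 were in the table, and 38 of them were among the 15021 genes with enough counts to test. The exception was STARD4, a sterol transfer protein, which had between 0 and 7 counts per library and is not described further.

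RNA was sequenced from MIA PaCa-2 cells, a widely used human pancreatic carcinoma line, in 12 libraries. They form 4 groups of 3: a scrambled control short hairpin RNA (shRNA), a knockdown of Musashi1 (MSI1), a knockdown of Musashi2 (MSI2), and a double knockdown with both. Musashi proteins are RNA-binding proteins that act on the translation and stability of messenger RNAs. All shRNAs came in lentivirus, the Musashi1 virus carrying a GFP tag and the Musashi2 virus a Tomato Red tag, and cells were sorted for 1 tag or for both after 72 h of infection. Every group was grown in medium with fetal and horse serum, and each library was made from 200 ng of total RNA. The sources used here do not give the tag or gate of the control cells, how many shRNAs were used per gene, the strandedness of the libraries or whether the libraries of a group came from separate cultures. The p-values measure only the spread between libraries, which may be technical. All values come from 1 cell line, and from bulk RNA, in which a change in a few cells and a change in all cells cannot be told apart.

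Cholesterol is built from acetyl-CoA. Acetyl-CoA units are condensed and reduced to mevalonate, which is phosphorylated and decarboxylated to the isoprenoid unit, joined into farnesyl diphosphate and squalene, closed to the first sterol, lanosterol, and trimmed to cholesterol. Fatty acids use the same cytosolic acetyl-CoA, which ATP citrate lyase makes from citrate, and both pathways consume NADPH. When membranes are poor in sterol, SCAP escorts the SREBPs from the endoplasmic reticulum to the Golgi, where they are cut and released to switch on the genes of both pathways, and when sterol is plentiful the INSIG proteins hold the complex back.

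SREBPs are known to act on promoters beside the factor NF-Y, whose box reads CCAAT and shows as ATTGG where it lies on the opposite strand. Upstream stretches are therefore shown for 10 members, 5 from the steps up to lanosterol, 3 from acetyl-CoA supply and desaturation, and the regulators INSIG1 and SREBF2. They come from the RefSeq promoter windows on GRCh38.p14 and are printed 5′ to 3′ on the strand of the gene, with capitals marking CCAAT on either strand and, in SREBF2, the sterol regulatory element core TCACNCCAC. Each stretch was chosen for holding the most of these motifs among stretches of 70 upstream bases that touch no protein-coding exon. All 10 thus show CCAAT by selection. HMGCS1, FDPS and IDI1 have further CCAAT boxes in their windows that these stretches do not show.
HMGCS1, chr5:43313531-43313600, minus strand: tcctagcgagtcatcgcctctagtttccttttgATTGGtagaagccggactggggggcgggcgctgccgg
MVD, chr16:88663194-88663263, minus strand: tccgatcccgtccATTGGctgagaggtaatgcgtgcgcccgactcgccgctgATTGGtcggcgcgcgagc
IDI1, chr10:1049298-1049367, minus strand: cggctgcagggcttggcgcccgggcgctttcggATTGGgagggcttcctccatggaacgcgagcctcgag
FDPS, chr1:155308657-155308726, plus strand: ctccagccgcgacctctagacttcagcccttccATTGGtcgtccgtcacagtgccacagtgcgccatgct
LSS, chr21:46228888-46228957, minus strand: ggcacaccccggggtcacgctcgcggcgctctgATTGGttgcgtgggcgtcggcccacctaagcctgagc
ACLY, chr17:41919030-41919099, minus strand: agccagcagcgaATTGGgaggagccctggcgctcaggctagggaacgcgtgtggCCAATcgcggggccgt
ACSS2, chr20:34874833-34874902, plus strand: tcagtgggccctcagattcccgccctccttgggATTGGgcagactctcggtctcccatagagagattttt
SCD, chr10:100346993-100347062, plus strand: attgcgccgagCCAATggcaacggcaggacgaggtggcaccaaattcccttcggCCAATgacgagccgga
INSIG1, chr7:155297675-155297744, plus strand: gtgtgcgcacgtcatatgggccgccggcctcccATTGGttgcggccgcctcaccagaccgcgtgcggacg
SREBF2, chr22:41832953-41833022, plus strand: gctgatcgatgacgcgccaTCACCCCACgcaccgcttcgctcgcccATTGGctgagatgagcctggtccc
All of these bases lie upstream of the start site of the RefSeq window they were taken from. IDI1 has other starts in RefSeq as well, and its stretch lies downstream of the most upstream of these. The ACLY stretch ends 8 bases before the start of its window, and the SCD stretch begins 240 bases before that of its own.

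RefSeq windows, each from 250 bases before to 50 bases after a start, were found for 35 of the 39 members, some with several starts. CCAAT was present on either strand in at least 1 window of 26 of these 35 genes (74.3%), against 10846 of the 27305 genes with a RefSeq window (39.7%). Counted by window, the shares were 30 of 51 (58.8%) for the members and 34.6% of all 35116 windows. It was found in 5 of 6 mevalonate pathway genes and in 6 of 7 genes from lanosterol to cholesterol. PMVK, CYP51A1, SREBF1, SCAP, INSIG2, ME1, ELOVL6, FADS1 and ACSL4 had no CCAAT in these windows. The letters TCACNCCAC were found for SREBF2 and ACSL1, 2 of 35 genes (5.71%), against 1.39% of all genes with a window. CCAAT matches overlap where both strands read through one palindrome, a match is only a run of letters, and its absence says nothing of what binds there.

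Library totals ran from 10.95 to 35.04 in control, 26.76 to 38.92 in Msi1, 39.69 to 53.01 in Msi2 and 39.85 to 56.12 in double knockdown libraries, in units of 1e6 counts. MSI1 had a mean of 4.53 ± 0.40 counts per 1e6 (CPM; SD, n = 3) in control, 1.84 ± 0.19 after Msi1 knockdown and 1.71 ± 0.28 in the double knockdown, but 6.14 ± 0.82 after Msi2 knockdown. MSI2 went from 82.7 ± 3.1 CPM to 54.0 ± 2.3, 15 ± 2.4 and 11.8 ± 0.62 in the Msi1, Msi2 and double knockdowns, so it was also lower in the cells with the Msi1 shRNA alone (log2 -0.61 ± 0.08, SE, adjusted p = 6.8e-06). Among carcinoma markers KRT8, KRT18 and VIM were abundant in every group, while EPCAM, CDH1 and KRT7 stayed under 1 CPM. The summed carcinoma list was at 8160 to 8360 CPM in control, 7610 to 8560 after Msi1, 7170 to 8350 after Msi2 and 8990 to 9480 after double knockdown. In the double knockdown 4 of its 6 tested genes were higher and 0 lower, against 26.6% and 25.3% of all genes tested. Of 7 fibroblast markers, COL1A2 and COL3A1 were high (435 and 226 CPM in control) and DCN, LUM, PDGFRB, THY1 and COL1A1 were at 1.61 CPM or less in every group mean. Summed levels of the fibroblast list were 603 to 738 CPM in control, 660 to 804 after Msi1, 775 to 887 after Msi2 and 549 to 642 after double knockdown, and the part of both lists in the results was not tested. Markers of hepatocytes or adipocytes and of blood cells summed to at most 1.55 CPM in any library, and neuronal genes of packaging cells to at most 0.18 CPM. The double knockdown libraries stood apart on the main axis of variation within groups, here called the library trend, with scores from -1.54 to -1.06 against -0.394 to 1.38 in the other 9 libraries. They also had a flatter relation of level to transcript length (slope -0.0176 to 0.053, against 0.103 to 0.207). Member calls in double knockdown against control are therefore given with the trend or length fit where such a fit lost the call. For genes outside the members no such fit is given. On neither measure do the double knockdown libraries overlap the others, so these fits cannot separate the measures from the knockdown.

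Changes are log2 ratios of group means from an edgeR quasi-likelihood fit, with their SE and a Benjamini-Hochberg adjusted p over all 15021 genes, and a gene is called higher or lower at an adjusted p below 0.05. After Msi1 knockdown, 6 of the 38 members rose and 25 fell, and 7 did not pass the test. Over all genes tested, 18.5% were called higher and 20.9% lower. The median change of the members was -0.29, and that of all genes -0.00. After Msi2 knockdown 10 members rose and 6 fell (all genes 16.7% and 13.6%), with a median of 0.07 against -0.00. In the double knockdown 12 rose and 16 fell (all genes 26.6% and 25.3%), with medians of -0.10 and -0.02. The 39 genes together made up 0.803% ± 0.025 of all counts in control, 0.600% ± 0.040 after Msi1, 0.821% ± 0.027 after Msi2 and 0.607% ± 0.015 after double knockdown (SD, n = 3). SCD alone held 0.333% ± 0.014, 0.200% ± 0.022, 0.315% ± 0.019 and 0.175% ± 0.012 of all counts in these groups, and the other 38 genes 0.471% ± 0.012, 0.400% ± 0.018, 0.506% ± 0.0088 and 0.432% ± 0.0036, so SCD made up most of the lower summed share after Msi1 and double knockdown. The 3 comparisons share their control libraries, so their values are given side by side and not as independent tests.

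**Figure D1:**
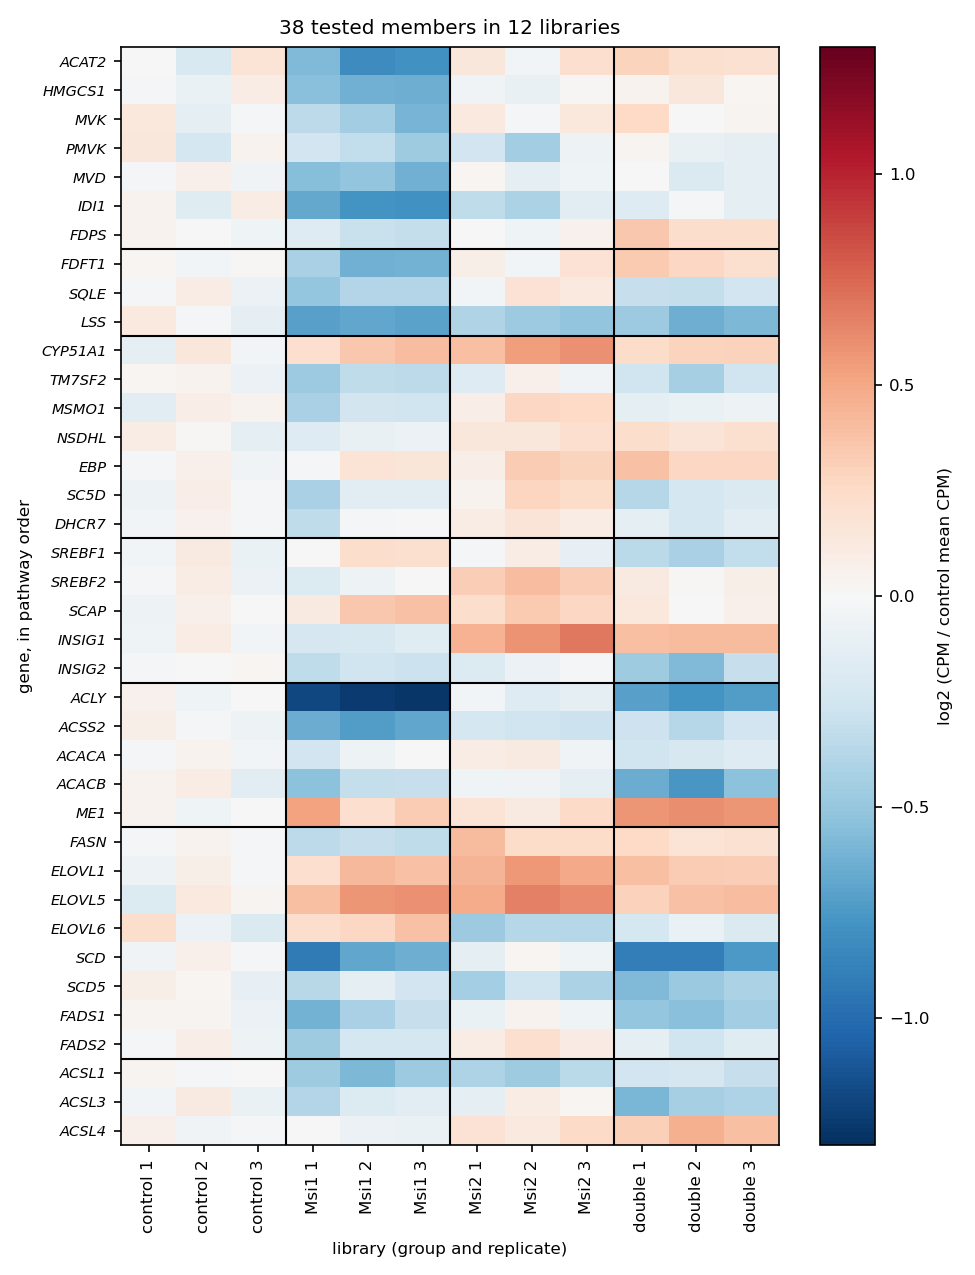
Level of each of the 38 tested members in each of the 12 libraries, as log2 of CPM over the control mean, with genes in pathway order and libraries by group. The rows from ACAT2 to LSS are below the control mean in the 3 Msi1 knockdown libraries, while in the double knockdown libraries ACAT2, FDPS and FDFT1 are above it and SQLE and LSS below.

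The 10 members that act between acetyl-CoA and lanosterol, which do not cover every step, fell after Msi1 knockdown, with a median of -0.56, and in all 10 the 3 Msi1 libraries lay below the 3 control libraries, which held for 24.4% of all genes. After Msi2 knockdown 2 of the 10 fell, IDI1 and LSS, and none rose (all genes 13.6% and 16.7%). In the double knockdown 3 rose, 2 fell and 5 did not pass, near the shares over all genes (26.6% higher and 25.3% lower). Compared directly, 9 of the 10 were higher in Msi2 than in Msi1 knockdown cells (all genes 22.3%), and 8 of the 10 were higher in the double knockdown than in the Msi1 knockdown (all genes 29.9%).

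ACAT2 (gene ID 39) is the cytosolic thiolase that joins acetyl-CoA units. It had 81.6, 71.6 and 93.0 CPM in control, 55.2, 46.6 and 47.5 after Msi1, 90.9, 79.9 and 95.2 after Msi2 and 101, 94.5 and 94.3 after double knockdown. The Msi1 libraries were the lowest and did not overlap with any other group. The log2 change was -0.71 ± 0.09 after Msi1 knockdown (adjusted p = 3.3e-06), 0.12 ± 0.09 after Msi2 (0.32) and 0.24 ± 0.09 after double knockdown (0.024). That last call for ACAT2 did not hold without control 1 or 2 or any 1 double knockdown library (log2 0.14 to 0.24), and once the library trend entered the fit the value was -0.03. It was kept in 13 of 21 alternative fits, so other fits lost it as well. Exons of ACAT2 overlap those of SOD2 and TCP1 on the other strand in GENCODE 29, and as the strand of counting is not given, reads there cannot be told apart.

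HMGCS1 (gene ID 3157), the cytosolic synthase that adds the next acetyl unit, had 83.5, 79.7 and 89.9 CPM in control and 58.0, 54.8 and 54.2 after Msi1 knockdown. It had 81.8, 78.8 and 85.1 CPM after Msi2 and 86.9, 93.4 and 85.7 after double knockdown. The Msi1 libraries lay below all others. The Msi2 and double knockdown libraries both overlapped control, while the double knockdown libraries lay just above those of Msi2. The changes were -0.59 ± 0.06 (adjusted p = 4.2e-07), -0.04 ± 0.06 (0.70) and 0.08 ± 0.06 (0.31). The double knockdown exceeded the Msi1 knockdown by 0.67 ± 0.06 (3.3e-07).

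MVK and PMVK, the kinases that phosphorylate mevalonate, were lower after Msi1 knockdown. MVK went from 21.2 ± 2.0 to 15.4 ± 1.4 CPM (log2 -0.46 ± 0.09, adjusted p = 0.00062), and was at 22.5 ± 1.3 and 22.8 ± 2.3 CPM after Msi2 and double knockdown. PMVK went from 22.9 ± 3.0 to 18.1 ± 1.3 CPM (-0.33 ± 0.10, adjusted p = 0.015), with 19.3 ± 2.6 and 22 ± 1.3 CPM in the other knockdowns. The PMVK call was lost without control 1 (-0.22), without Msi1 library 3 (-0.27) and with the library trend (-0.14). MVK shares exon sequence with MMAB on the other strand.

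MVD (gene ID 4597), the decarboxylase that yields isopentenyl diphosphate, had 47.1, 50 and 46.2 CPM in control, 32.6, 33.4 and 31.0 after Msi1, 48.6, 43.8 and 46.0 after Msi2 and 48.0, 41.9 and 44.1 after double knockdown. The Msi1 libraries lay below all others, which overlapped among themselves. Its change was -0.57 ± 0.07 after Msi1 knockdown (adjusted p = 2.0e-06), -0.06 ± 0.07 after Msi2 (0.58) and -0.10 ± 0.07 after double knockdown (0.22).

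IDI1 (gene ID 3422) interconverts the 5-carbon isoprenoid units. Its levels were 70.8, 61.8 and 73.5 CPM in control, 43.3, 40.0 and 39.9 after Msi1, 54.7, 51.5 and 62.5 after Msi2 and 61.4, 67.9 and 62.7 after double knockdown. The Msi1 libraries were the lowest without overlap, and the Msi2 libraries overlapped both control and the double knockdown. The change was -0.74 ± 0.08 after Msi1 (adjusted p = 5.4e-07), -0.28 ± 0.08 after Msi2 (0.0092) and -0.10 ± 0.08 after double knockdown (0.31). The Msi2 call was lost without control 1 or Msi2 library 1 (-0.26 in both cases). IDI1 shares exon sequence with IDI2-AS1 on the other strand.

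FDPS makes farnesyl diphosphate, the branch point to sterols, ubiquinone and protein prenylation. It went from 157 ± 5.3 CPM to 132 ± 7.3 after Msi1 knockdown (-0.25 ± 0.06, adjusted p = 0.0031), stayed at 157 ± 6.2 after Msi2 (0.99) and reached 189.9 ± 9.6 after double knockdown (0.27 ± 0.06, adjusted p = 0.0012). FDPS was thus lower than control with the Msi1 shRNA alone and higher with both.

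FDFT1 (gene ID 2222), squalene synthase, commits farnesyl diphosphate to sterols. It had 206, 198 and 204 CPM in control, 151, 131 and 133 after Msi1, 214, 198 and 231 after Msi2 and 256, 244 and 234 after double knockdown. The Msi1 libraries were below and the double knockdown libraries above every library of the other groups. The changes were -0.55 ± 0.07 (adjusted p = 4.4e-06), 0.08 ± 0.07 (0.43) and 0.27 ± 0.07 (0.0030). Once the library trend entered the fit, the rise of FDFT1 in the double knockdown was 0.09 and no longer called.

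SQLE, squalene epoxidase, fell from 73.2 ± 4.4 to 54.7 ± 2.6 CPM after Msi1 (-0.42 ± 0.07, adjusted p = 5.5e-05) and to 60.1 ± 1.4 after double knockdown (-0.29 ± 0.07, adjusted p = 0.0014), with 78.1 ± 6.1 after Msi2. The SQLE change in the double knockdown was -0.17 and not called with the library trend as a covariate.

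LSS (gene ID 4047), which closes squalene epoxide to lanosterol, was the 1 gene of these 10 that fell in all 3 knockdowns. It had 221, 199 and 187 CPM in control, 124, 127 and 125 after Msi1, 155, 146 and 142 after Msi2 and 146, 130.1 and 135 after double knockdown. All 9 knockdown libraries lay below the lowest control library. The changes were -0.70 ± 0.07 (adjusted p = 1.2e-07), -0.46 ± 0.07 (3.6e-05) and -0.57 ± 0.07 (1.3e-06).

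**Figure D2:**
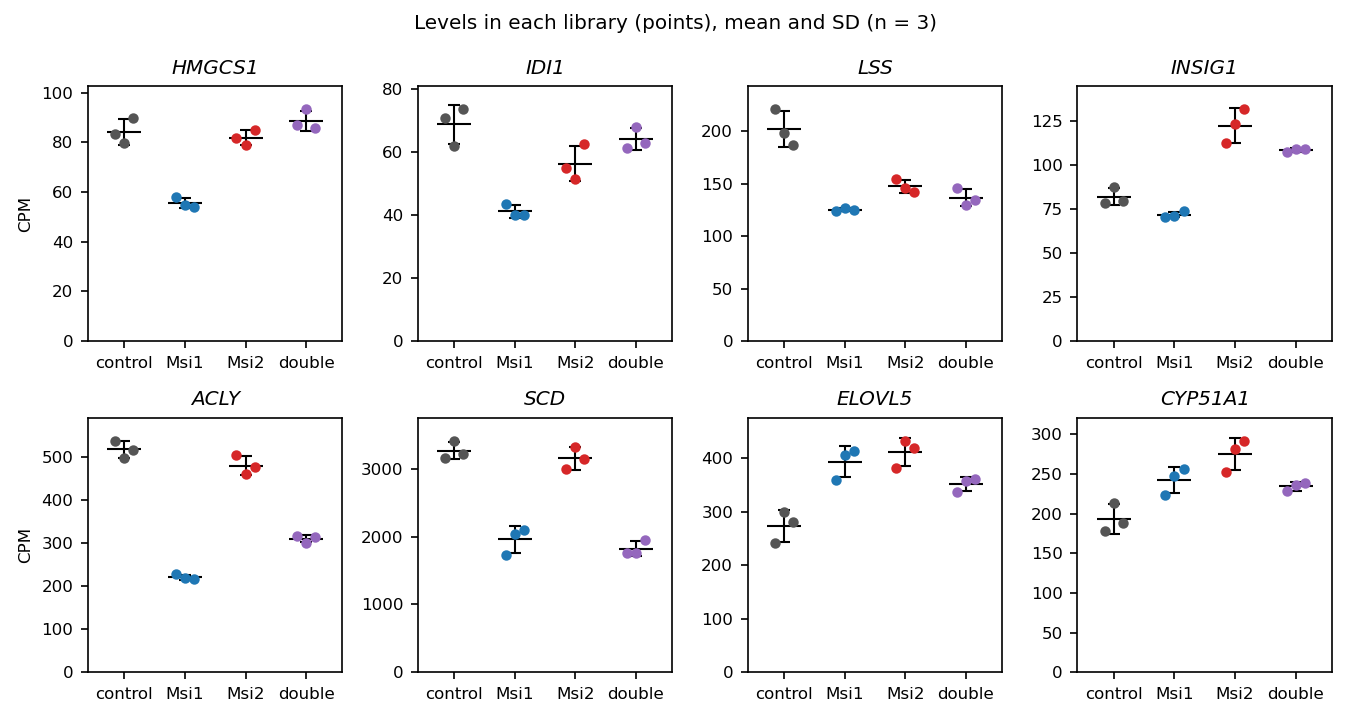
CPM of 8 members in each library (points) with the group mean and SD (lines, n = 3), on linear axes that start at 0. HMGCS1, IDI1 and LSS are lowest in the Msi1 libraries, ACLY and SCD are low in both groups with the Msi1 shRNA, and INSIG1, ELOVL5 and CYP51A1 are above control after Msi2 knockdown.

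The steps from lanosterol to cholesterol moved less uniformly. After Msi1 knockdown 1 of 7 genes rose, 3 fell and 3 did not pass, with a median of -0.13. After Msi2 knockdown 3 rose and none fell, and after double knockdown 3 rose and 2 fell. Over all genes 18.5% rose and 20.9% fell after Msi1, 16.7% and 13.6% after Msi2, and 26.6% and 25.3% after double knockdown. With 7 genes, some of these counts lie near those shares.

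CYP51A1 (gene ID 1595), the lanosterol demethylase, was higher in all 3 knockdowns, the reverse of LSS just before it. It had 178, 214 and 188 CPM in control, 224, 247 and 256 after Msi1, 252, 281 and 292 after Msi2 and 228, 236 and 238 after double knockdown. Every knockdown library was above the highest control library, and the knockdowns partly overlapped one another. The rises were 0.33 ± 0.08 (adjusted p = 0.0020), 0.51 ± 0.08 (4.4e-05) and 0.28 ± 0.08 (0.0047). In GENCODE 29 CYP51A1 shares 2844 bases of exon with AC000120.2 on its own strand, beside a longest transcript of 3210 bases, and 138 with CYP51A1-AS1 on the other. HMGCS1, FDPS, FDFT1, LSS, SREBF2, ACLY and ACSL3 also share exon sequence with RNAs on the other strand that are not in the count table.

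TM7SF2, a sterol reductase, fell after Msi1 (-0.38 ± 0.07, adjusted p = 0.00032) and double knockdown (-0.32 ± 0.07, adjusted p = 0.0011), from 53.7 ± 2.5 CPM to 41.4 ± 2.3 and 43.2 ± 2.9. MSMO1, the methylsterol oxidase, fell from 67.4 ± 5.4 to 54.6 ± 3.6 CPM after Msi1 knockdown (-0.30 ± 0.07, adjusted p = 0.0024) and rose to 77.6 ± 5.3 after Msi2 (0.21 ± 0.07, adjusted p = 0.031). Its rise was kept in 12 of 21 alternative fits. The fits that lost it included those without control 1, Msi2 library 2 or 3, or double knockdown library 2 or 3 (0.13 to 0.20). The direct difference between Msi2 and Msi1 knockdown was 0.51 ± 0.07 (9.6e-06). NSDHL, the dehydrogenase of the same demethylation, passed only in the double knockdown (0.19 ± 0.06, adjusted p = 0.018), a call lost without control 2 (0.17), control 3 (0.13) or double knockdown library 3 (0.17) and with the length correction (0.02). This NSDHL call was kept in 16 of 21 alternative fits.

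EBP, the sterol isomerase, rose after Msi2 (0.24 ± 0.07, adjusted p = 0.018) and double knockdown (0.31 ± 0.07, adjusted p = 0.0016), from 71.6 ± 2.9 CPM to 84.4 ± 7.5 and 88.7 ± 4.0. The first call was kept in 16 of 21 alternative fits, and those that lost it included the fits without control 1 or 3 or Msi2 library 2 or 3 (0.18 to 0.21). The EBP rise in the double knockdown was 0.13 with the length correction. SC5D, a sterol desaturase, was lower after Msi1 (-0.23 ± 0.09, adjusted p = 0.036) and double knockdown (-0.27 ± 0.08, adjusted p = 0.013). The SC5D call after Msi1 was lost without any 1 control library, Msi1 library 1 or double knockdown library 2 (-0.26 to -0.14), and that in the double knockdown without control 2 (-0.23) or double knockdown library 1 (-0.21) and with the library trend (-0.08). These SC5D calls were kept in 12 and 17 of 21 alternative fits, so other fits lost them as well. DHCR7, the reductase that completes cholesterol, passed in no comparison with control: its changes were -0.11 ± 0.07 (0.24), 0.12 ± 0.07 (0.24) and -0.16 ± 0.07 (0.076).

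Of the 5 regulators tested, 1 rose and 2 fell after Msi1 knockdown (all genes 18.5% and 20.9%). After Msi2 knockdown 3 rose and none fell (16.7% and 13.6%), and after double knockdown 1 rose and 2 fell (26.6% and 25.3%). With 5 genes, some of these counts lie near the shares over all genes. SREBF2, which encodes the SREBP of the sterol genes, was at 186 ± 12 CPM in control and 176 ± 11 after Msi1 knockdown (-0.08 ± 0.06, adjusted p = 0.34), and rose to 237 ± 8.4 after Msi2 (0.35 ± 0.06, adjusted p = 0.00045). In the double knockdown SREBF2 was at 196 ± 6.7 CPM (0.07 ± 0.06, adjusted p = 0.39). SREBF1, whose product acts mainly on fatty acid genes, was at 164 ± 12, 182 ± 16 and 163 ± 12 CPM in control, Msi1 and Msi2 cells and fell to 128 ± 4.5 in the double knockdown (-0.37 ± 0.07, adjusted p = 0.00043). Its exons overlap those of RAI1 on the other strand. SCAP, the escort protein, rose by 0.28 ± 0.07 after Msi1 (adjusted p = 0.0034) and by 0.28 ± 0.07 after Msi2 knockdown (0.0050), and was 0.07 ± 0.07 from control in the double knockdown (0.43).

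INSIG1 (gene ID 3638), itself a target of the SREBPs, had 78.5, 87.5 and 79.6 CPM in control, 70.5, 71.1 and 73.6 after Msi1, 112, 123 and 132 after Msi2 and 107, 109 and 109 after double knockdown. The Msi2 and double knockdown libraries lay above all control libraries, and the Msi1 libraries below them. The changes were -0.19 ± 0.07 (adjusted p = 0.024), 0.58 ± 0.06 (2.0e-06) and 0.40 ± 0.06 (4.2e-05). The fall of INSIG1 after Msi1 knockdown was lost without control 2 (-0.14) or Msi1 library 2 (-0.18) or 3 (-0.20). INSIG2, its relative, fell after Msi1 (-0.28 ± 0.08, adjusted p = 0.0071) and double knockdown (-0.44 ± 0.08, adjusted p = 0.00011), from 19.9 ± 0.30 CPM to 16.3 ± 0.43 and 14.7 ± 1.4. The fall of INSIG2 after Msi1 was -0.25 and not called with libraries thinned to the depth of the smallest.

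Genes that supply acetyl-CoA, malonyl-CoA and NADPH were mostly lower where the Msi1 shRNA was present. After Msi1 knockdown 1 of 5 rose and 3 fell (all genes 18.5% and 20.9%). After Msi2 none rose and 1 fell (16.7% and 13.6%), and after double knockdown 1 rose and 4 fell (26.6% and 25.3%).

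ACLY (gene ID 47), the ATP citrate lyase that feeds both pathways, had the largest fall after Msi1 knockdown among the 38 members. It had 539, 499 and 518 CPM in control, 228, 219 and 216 after Msi1, 505, 460.3 and 477 after Msi2 and 317, 302 and 314 after double knockdown. The Msi1 and double knockdown libraries were each apart from all other groups, and the Msi2 libraries overlapped control. ACLY was at 42.6% of control after Msi1 (-1.23 ± 0.06, adjusted p = 3.9e-11) and 60.0% after double knockdown (-0.74 ± 0.06, adjusted p = 2.7e-08), and its change after Msi2 was -0.11 ± 0.06 (0.21). The double knockdown was above the Msi1 knockdown by 0.49 ± 0.06 (7.7e-06) and below the Msi2 knockdown (-0.63 ± 0.06, adjusted p = 6.0e-07).

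ACSS2 (gene ID 55902), which makes acetyl-CoA from acetate, fell in all 3 knockdowns. It had 66.3, 62.4 and 60.3 CPM in control, 40.2, 38 and 39.5 after Msi1, 53.7, 52.6 and 52.0 after Msi2 and 52.1, 48.6 and 52.9 after double knockdown. No knockdown library reached the lowest control library, and the Msi1 libraries were the lowest. The changes were -0.69 ± 0.06 (adjusted p = 3.5e-08), -0.26 ± 0.06 (0.0023) and -0.30 ± 0.06 (0.00029).

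ACACA, the acetyl-CoA carboxylase of fatty acid synthesis, was at 294 ± 8.8 CPM in control, 274 ± 24 after Msi1, 306 ± 19 after Msi2 and 254 ± 8.5 after double knockdown, and passed only there (-0.21 ± 0.07, adjusted p = 0.016). That ACACA call was lost without double knockdown library 1 (-0.18), with the trend (-0.04) and with the length correction (-0.07). ACACB (gene ID 32), the carboxylase at mitochondria whose malonyl-CoA restrains fatty acid oxidation, had 18.1, 18.7 and 15.8 CPM in control, 12.1, 14.2 and 14.2 after Msi1, 16.9, 17 and 16.1 after Msi2 and 11.2, 10.4 and 12.2 after double knockdown. Its Msi1 and double knockdown libraries lay below control and Msi2 and overlapped each other. ACACB changed by -0.40 ± 0.09 (adjusted p = 0.0012), -0.09 ± 0.08 (0.45) and -0.66 ± 0.09 (4.7e-06).

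ME1 (gene ID 4199), the cytosolic malic enzyme that yields NADPH, went the other way. It had 37.0, 34.6 and 36.2 CPM in control, 51.6, 41.8 and 45.1 after Msi1, 40.6, 39.1 and 42.8 after Msi2 and 53.4, 54.8 and 53.4 after double knockdown. All knockdown libraries exceeded the highest control library, and the double knockdown libraries were the highest. ME1 rose by 0.36 ± 0.07 after Msi1 (adjusted p = 0.00055) and 0.58 ± 0.07 after double knockdown (2.1e-06), and its change after Msi2 was 0.18 ± 0.07 (0.061).

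Fatty acid synthesis, elongation and desaturation split by enzyme. After Msi1 knockdown 3 of 8 genes rose and 5 fell (all genes 18.5% and 20.9%). After Msi2 3 rose and 2 fell (16.7% and 13.6%), and after double knockdown 3 rose and 4 fell (26.6% and 25.3%). FASN, the fatty acid synthase, fell from 545 ± 15 to 435 ± 6.7 CPM after Msi1 (-0.32 ± 0.07, adjusted p = 0.00071) and rose to 672 ± 48 after Msi2 (0.30 ± 0.07, adjusted p = 0.0020) and 629.7 ± 19 after double knockdown (0.21 ± 0.07, adjusted p = 0.014). The last FASN call was lost without control 1 (0.20), control 3 (0.19) or double knockdown library 1 (0.19). The direct difference of FASN between Msi2 and Msi1 knockdown was 0.63 ± 0.07 (5.1e-07).

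The elongases ELOVL1, which extends saturated very-long-chain acids, and ELOVL5, which extends polyunsaturated ones, rose in all 3 knockdowns. ELOVL1 (gene ID 64834) had 117, 129 and 121 CPM in control, 142, 164 and 159.6 after Msi1, 166, 180.5 and 172 after Msi2 and 160.4, 154 and 152 after double knockdown. ELOVL5 (gene ID 60481) had 242, 300.3 and 280.5 CPM in control, 360.4, 407 and 413 after Msi1, 382, 433 and 419.7 after Msi2 and 338, 358 and 362 after double knockdown. For both elongases every knockdown library was above every control library. ELOVL1 changed by 0.34 ± 0.07 (adjusted p = 0.00032), 0.50 ± 0.07 (1.0e-05) and 0.35 ± 0.07 (0.00020), the last being 0.15 and not called with the length correction. ELOVL5 changed by 0.52 ± 0.08 (3.9e-05), 0.59 ± 0.08 (1.9e-05) and 0.36 ± 0.08 (0.00095). ELOVL6, which extends palmitate, moved in opposite directions in the single knockdowns. It was at 10.5 ± 1.6 CPM in control, 12.9 ± 0.74 after Msi1 (0.26 ± 0.10, adjusted p = 0.036) and 7.93 ± 0.33 after Msi2 (-0.43 ± 0.10, adjusted p = 0.0021), and the direct difference was -0.70 ± 0.09 (6.4e-06). The ELOVL6 rise after Msi1 was kept in 14 of 21 alternative fits. The losses included the fits without control 2 (0.20), control 3 (0.21), Msi1 library 2 (0.28) or 3 (0.23).

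SCD (gene ID 6319), the desaturase that makes oleate, was the most abundant member, at 609 CPM per kb of its longest transcript in control, against 119.5 for ACLY as the next. SCD had 3163, 3411 and 3222 CPM in control, 1731, 2038 and 2101 after Msi1, 2987, 3322 and 3141 after Msi2 and 1755, 1752 and 1944 after double knockdown. The libraries fell into a high pair of groups, control and Msi2, and a low pair, Msi1 and double, with overlap within each pair and none between them. SCD was at 59.9% of control after Msi1 (-0.74 ± 0.09, adjusted p = 1.7e-06) and 55.6% after double knockdown (-0.85 ± 0.09, adjusted p = 2.8e-07), with -0.05 ± 0.09 after Msi2 (0.71). The double and Msi1 knockdowns differed by -0.11 ± 0.09 (0.31; 95% interval -0.31 to 0.09). SCD5 (gene ID 79966), a second stearoyl-CoA desaturase, was at 6.80 CPM per kb in control. Its libraries read 22.2, 21.4 and 19.6 CPM in control, 16.4, 19.3 and 17.7 after Msi1, 15.5, 17.6 and 15.8 after Msi2 and 14.2, 15 and 15.8 after double knockdown. Every knockdown library of SCD5 was below the lowest control library. The SCD5 changes were -0.26 ± 0.08 (adjusted p = 0.018), -0.38 ± 0.08 (0.0013) and -0.50 ± 0.08 (4.6e-05), and the first was lost without control 1 (-0.21), Msi1 library 1 (-0.20) or Msi1 library 3 (-0.24).

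FADS1 (gene ID 3992) and FADS2 are the desaturases of polyunsaturated fatty acids. FADS1 had 173, 174 and 161 CPM in control, 110.4, 126 and 137 after Msi1, 159.5, 175 and 163 after Msi2 and 119, 116 and 123 after double knockdown. As with SCD, control and Msi2 libraries were high and Msi1 and double knockdown libraries low, with no overlap between the pairs. FADS1 changed by -0.44 ± 0.07 (adjusted p = 6.2e-05), -0.03 ± 0.07 (0.78) and -0.50 ± 0.07 (1.1e-05). FADS2 was at 93.2 ± 4.9 CPM in control and fell after Msi1 (-0.30 ± 0.07, adjusted p = 0.0020) and double knockdown (-0.18 ± 0.07, adjusted p = 0.034). The latter FADS2 call was lost without control 1 (-0.20), control 2 (-0.16) or double knockdown library 2 (-0.16), with the length correction (-0.13) and with the trend (-0.02).

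The acyl-CoA synthetases, which activate fatty acids for use, differed from one another. ACSL1 (gene ID 2180) had 83.0, 80.0 and 80.9 CPM in control, 59.1, 54.3 and 58.7 after Msi1, 61.6, 59.1 and 63.7 after Msi2 and 68.2, 69.7 and 66.2 after double knockdown. All knockdown libraries were below control, and those with both shRNAs lay closest to it. The ACSL1 falls were -0.50 ± 0.06 (adjusted p = 1.2e-06), -0.40 ± 0.06 (2.9e-05) and -0.26 ± 0.06 (0.00098). ACSL3 fell after Msi1 (-0.23 ± 0.08, adjusted p = 0.022) and double knockdown (-0.47 ± 0.08, adjusted p = 5.5e-05), from 197 ± 14 CPM to 168 ± 14 and 142 ± 10. The ACSL3 call after Msi1 was kept in 17 of 21 alternative fits. The losses included the fits without control 1 (-0.25), control 2 (-0.17) or Msi1 library 1 (-0.17). ACSL4, which prefers arachidonate, rose after Msi2 (0.19 ± 0.06, adjusted p = 0.023) and double knockdown (0.39 ± 0.06, adjusted p = 3.3e-05), from 92.9 ± 3.9 CPM to 106 ± 4.4 and 122 ± 6.2. The ACSL4 call after Msi2 was lost without control 2 (0.16), control 3 (0.17), Msi2 library 1 (0.19) or Msi2 library 3 (0.16).

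**Figure D3:**
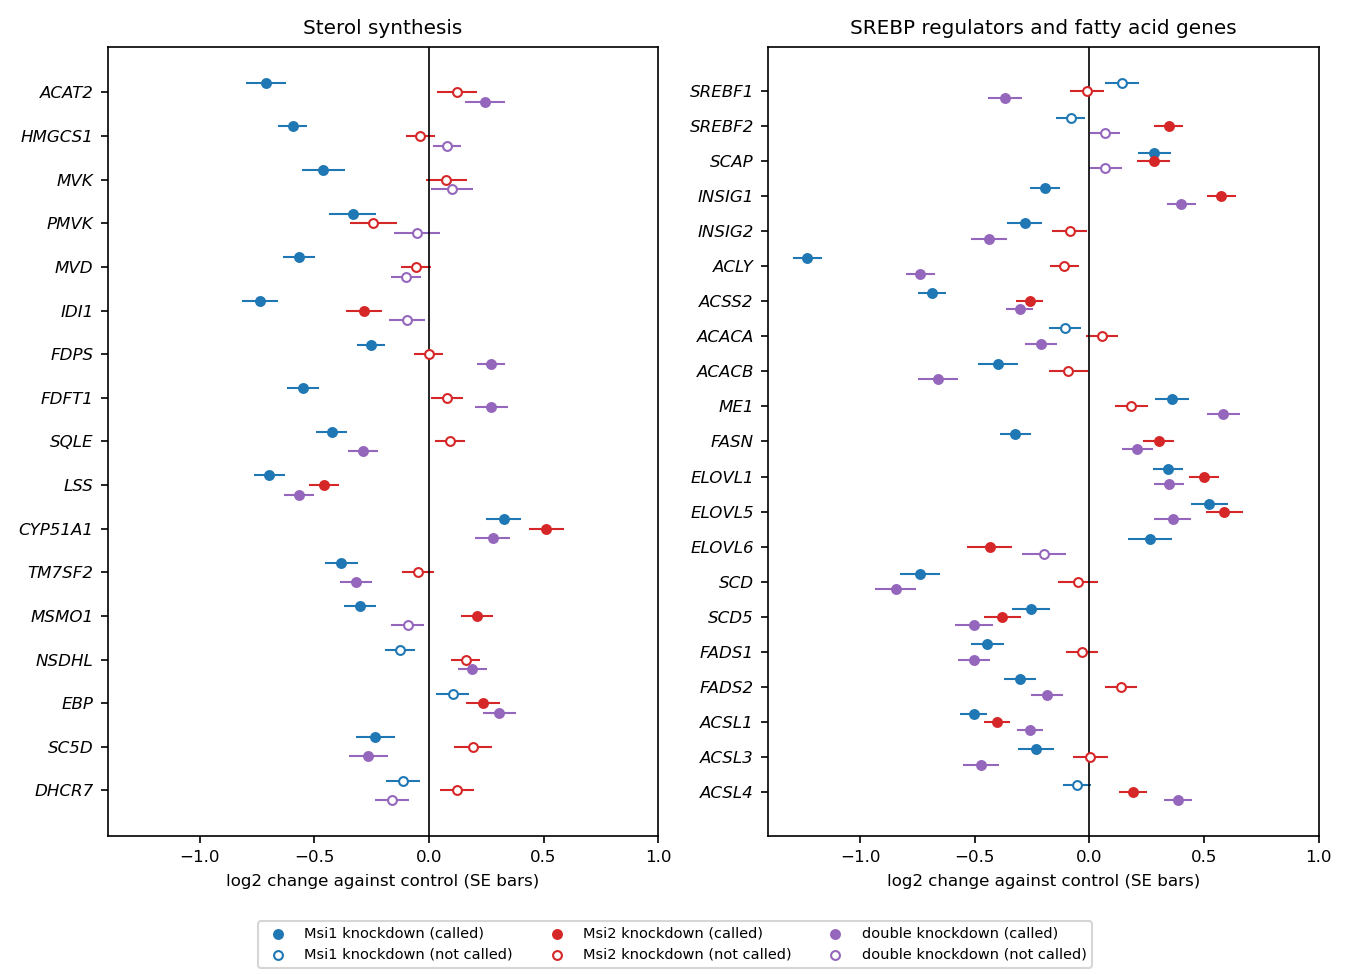
Log2 change of each tested member against control with its SE, filled where called. The left panel holds the sterol synthesis genes and the right panel the SREBP regulators and fatty acid genes. The 3 knockdowns are shown in different colours. All 10 genes from ACAT2 to LSS lie left of 0 and are filled for the Msi1 knockdown. For the Msi2 knockdown 2 of them, IDI1 and LSS, are filled.

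The knockdowns were also compared with each other, which separates them without the control libraries. The double knockdown cells differ from those of either single knockdown also in carrying both viruses and in being sorted for both tags. Effects of these cannot be told apart here from those of the added shRNA. Msi2 against Msi1 knockdown gave 26 members higher and 2 lower (all genes 22.3% and 18.9%), with a median of 0.30 against -0.00 for all genes. The largest differences upward were those of ACLY (1.12 ± 0.06, adjusted p = 1.7e-10), ACAT2 (0.83 ± 0.09, 3.6e-07), INSIG1 (0.77 ± 0.06, 2.0e-08) and SCD (0.69 ± 0.09, 4.1e-06). The 2 lower members were ELOVL6 and ME1, and the ME1 call (-0.18 ± 0.07, adjusted p = 0.047) was lost without Msi1 library 1 (-0.09) or 3 (-0.21), Msi2 library 1 (-0.19) or 2 (-0.15), or double knockdown library 1 (-0.17). This ME1 call was kept in 13 of 21 alternative fits, so other fits lost it as well.

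Double against Msi2 knockdown, the step that adds the Msi1 shRNA, gave 6 members higher and 19 lower (all genes 22.7% and 22.5%), with a median of -0.16 against -0.02. SCD (-0.79 ± 0.09, adjusted p = 1.9e-06), ACLY (-0.63 ± 0.06), ACACB (-0.57 ± 0.08, adjusted p = 3.2e-05), ACSL3 (-0.48 ± 0.08, adjusted p = 8.7e-05) and FADS1 (-0.47 ± 0.07, adjusted p = 4.3e-05) were lower. None of the 7 genes from ACAT2 to FDPS was lower: FDPS was higher (0.27 ± 0.06, adjusted p = 0.0014; 0.15 and not called with the trend) and the other 6 did not pass. Once the library trend entered the fit, 0 members were called higher and 8 lower, and 7 of these 8 were also called lower without it. Over all genes that fit called 1238 higher and 1459 lower, against 3413 and 3379 without the trend. The 6 higher fell to 3 without double knockdown library 1 or Msi2 library 1, and to 2 without library 2 of either group.

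Double against Msi1 knockdown, the step that adds the Msi2 shRNA, gave 18 members higher and 6 lower (all genes 29.9% and 26.2%), with a median of 0.14 against 0.00. All 7 genes from ACAT2 to FDPS were higher, led by ACAT2 (0.95 ± 0.09, adjusted p = 3.2e-07), HMGCS1, IDI1 (0.64 ± 0.08, adjusted p = 5.3e-06) and MVK (0.56 ± 0.09, adjusted p = 5.5e-05). FDFT1 was higher too (0.82 ± 0.07, adjusted p = 2.4e-07). PMVK was the weakest of the 7 (0.28 ± 0.10, adjusted p = 0.022), was -0.23 with the trend and 0.03 with the length correction, and lost its call without Msi1 library 2 (0.27) or 3 (0.22) or double knockdown library 1 (0.23) or 2 (0.28). This PMVK call was kept in 13 of 21 alternative fits. With the trend as a covariate 16 members were called higher and 0 lower, and 13 of these 16 were also called higher without it. MVK at 0.21 and IDI1 at 0.29 were among those no longer called. Over all genes that fit called 400 higher and 318 lower, against 4486 and 3933 without the trend. The 6 lower became 3 without Msi1 library 3.

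The departure from additivity asks whether the double knockdown equals the sum of the single knockdowns on the log2 scale. It is the change in the double knockdown minus both single changes, which is also the effect of the Msi1 shRNA with the Msi2 shRNA minus its effect alone. Any effect of carrying both viruses or of sorting for both tags is part of this value. It was positive for 13 members and negative for 5 (all genes 21.3% and 19.1%, together 40.3%), with a median of 0.03 against 0.01. The 13 included all 7 genes from ACAT2 to FDPS, at 0.49 to 0.92, and FDFT1 and LSS. IDI1 had the highest value (0.92 ± 0.11, adjusted p = 1.0e-05): its single changes of -0.74 and -0.28 stood beside -0.10 with both. ACAT2 (0.83 ± 0.12, 7.6e-05), FDFT1 (0.74 ± 0.10, 2.7e-05) and HMGCS1 (0.71 ± 0.09, 1.4e-05) followed. With the trend as a covariate ACAT2 was 0.31, MVK 0.10 and PMVK -0.03, none of them called.

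ACSL1 (0.65 ± 0.08, adjusted p = 1.6e-05), ACSS2 (0.64 ± 0.08, 2.1e-05) and ACLY (0.60 ± 0.09, 7.8e-05) also departed upward. SCD did not pass (-0.05 ± 0.12, 0.75; 95% interval -0.34 to 0.23), nor did FADS1 (-0.03 ± 0.10, 0.85; -0.26 to 0.20) or any gene from TM7SF2 to DHCR7. The 4 genes that rose in both single knockdowns departed downward: ELOVL5 (-0.75 ± 0.11, adjusted p = 0.00010), CYP51A1 (-0.56 ± 0.11, 0.00066), ELOVL1 (-0.50 ± 0.09, 0.00050) and SCAP (-0.49 ± 0.10, 0.00093) were each lower with both shRNAs than the sum of the single changes. The departure subtracts both single changes, so picking genes by their rises in both leans it downward. SREBF1 departed downward as well (-0.50 ± 0.10, adjusted p = 0.0014). ACSL4 departed upward (0.25 ± 0.09, adjusted p = 0.026), but was 0.09 with the trend, and its call was lost with no filter and without control 1, Msi1 library 2 or 3, Msi2 library 1 or 2, or double knockdown library 2 or 3 (0.20 to 0.25). The 5 negative departures were 1 with the trend as a covariate, where ELOVL5 was the 1 still called and CYP51A1 was -0.33, ELOVL1 -0.26, SCAP -0.22 and SREBF1 -0.08, and 10 without Msi1 library 1. Positive departures of members went from 13 to 9 with the trend. Over all genes the trend fit called 183 departures positive and 409 negative, against 3192 and 2866 without the trend.

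**Figure D4:**
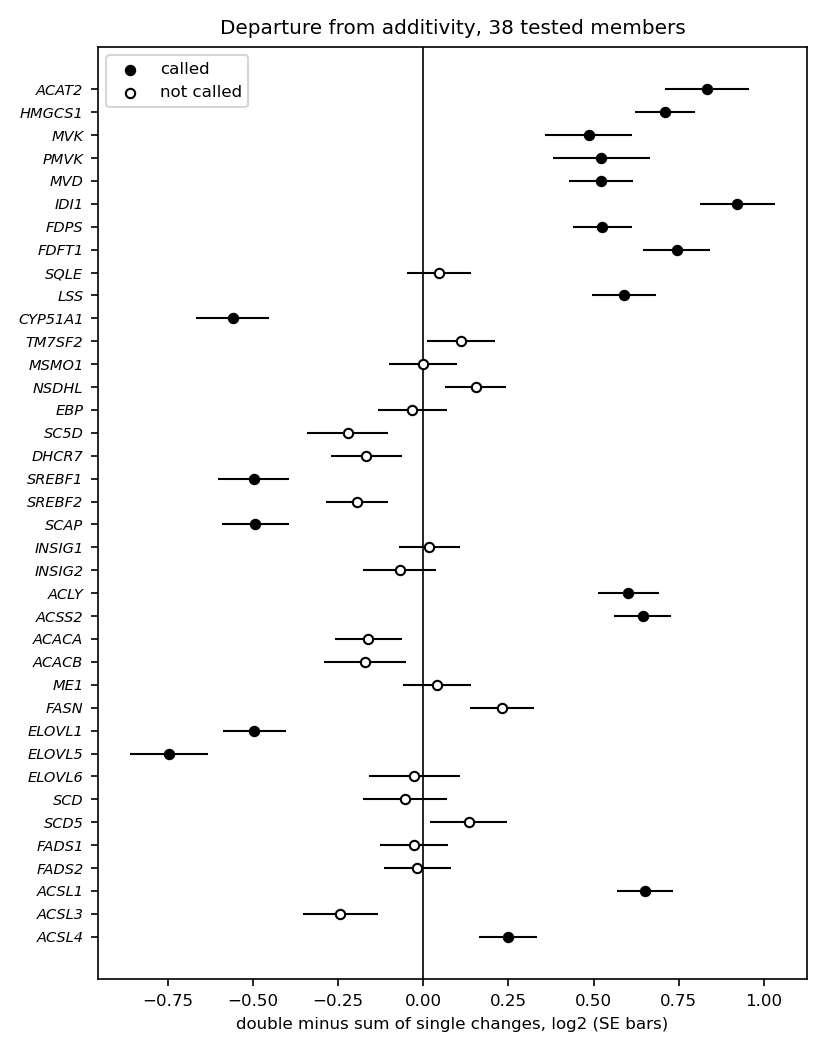
Departure of the double knockdown from the sum of the single knockdowns, log2 with SE, for the 38 tested members in pathway order, filled where called. The 7 genes from ACAT2 to FDPS sit between 0.49 and 0.92, and the genes from TM7SF2 to DHCR7 have open points between -0.22 and 0.15.

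Genes that border these pathways were counted in the same fits, where 18.5%, 16.7% and 26.6% of all genes rose and 20.9%, 13.6% and 25.3% fell after Msi1, Msi2 and double knockdown. Several of the shares below lie near these. Fits with the library trend or the length correction are given for the members only, so the double knockdown calls below stand without them. Of 7 other genes of sterol steps, 0, 2 and 2 rose and 2, 1 and 2 fell after Msi1, Msi2 and double knockdown, HSD17B7, a ketosteroid reductase of sterol demethylation, rising after Msi2 (0.48 ± 0.06, adjusted p = 2.9e-06). Of 13 genes of SREBP processing and turnover, 4, 3 and 3 rose and 3, 1 and 4 fell, with NFYA, a subunit of NF-Y, lower after Msi1 (-0.34 ± 0.06, adjusted p = 0.00018) and double knockdown (-0.33 ± 0.06, adjusted p = 0.00016). Of 13 genes of the isoprenoid branch, 3, 2 and 6 rose and 2, 1 and 1 fell, FNTB, the farnesyltransferase subunit, falling in all 3 knockdowns (-0.37 ± 0.07, -0.37 ± 0.07 and -0.31 ± 0.07).

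Of 16 tested genes for sterol uptake, storage and efflux, 4, 6 and 3 rose and 4, 3 and 8 fell. The efflux pump ABCA1 rose after Msi2 (0.90 ± 0.12, adjusted p = 1.2e-05) and fell in the double knockdown (-0.75 ± 0.13, adjusted p = 8.7e-05). NPC1, which exports cholesterol from lysosomes, fell after Msi1 (-0.44 ± 0.08, adjusted p = 0.00034) and rose after Msi2 (0.43 ± 0.08, adjusted p = 0.00053). Of 12 genes of citrate export and NADPH supply, 0, 2 and 7 rose and 6, 2 and 0 fell, so the Msi1 and double knockdowns had opposite counts. IDH1 (-0.45 ± 0.07, adjusted p = 4.2e-05) and PGD (-0.45 ± 0.07, adjusted p = 6.7e-05) fell after Msi1, and the citrate carrier SLC25A1 rose in the double knockdown (0.56 ± 0.08, adjusted p = 1.3e-05).

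Of 20 tested genes for other elongation, desaturation and activation steps, 4, 3 and 2 rose and 1, 0 and 5 fell. Of 15 genes of glycerolipid synthesis, 3, 3 and 4 rose and 5, 3 and 4 fell, with PCYT2, of phosphatidylethanolamine synthesis, lower after Msi1 (-0.69 ± 0.07, adjusted p = 4.7e-07). Of 13 tested genes of fatty acid oxidation none rose in any knockdown, and 7, 3 and 6 fell. PPARA, a nuclear receptor that drives oxidation genes, fell after Msi1 (-0.98 ± 0.09, adjusted p = 5.1e-08) and double knockdown (-0.89 ± 0.09, adjusted p = 1.2e-07), and CPT1A, the gatekeeper of mitochondrial import, fell by 0.59 ± 0.06 and 0.60 ± 0.06 on the log2 scale.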

How the data were processed

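The authors deposited estimated counts per gene, as whole numbers for 12 libraries with a gene ID and symbol, which were used unchanged. The submitters' processing notes name kallisto 0.42.1, CASAVA 1.4 and hg19. No source used here gives the transcript set, the summing to genes or the strand of counting. Kallisto divides reads shared by similar transcripts by a likelihood model, so near-identical genes depend on that division.

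Groups came from the sample titles. Genes passing edgeR's filterByExpr (minimum count 10) were fitted in edgeR 4.0.16 (R 4.3.3), with TMM scaling and 1 robust quasi-likelihood model with a mean per group over all 12 libraries (8 residual degrees of freedom). Tests were two-sided, and p-values were adjusted over all 15021 genes by the Benjamini-Hochberg method at 0.05. The SE was the log2 change over the root of F. CPM is per 1e6 of the TMM-scaled total. An exact permutation test of 3 against 3 cannot go below p = 0.1, so single genes rest on this fit.

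The members and the lists of neighbouring genes were chosen with earlier results of these data known. Per-library values are given for the 18 members with an adjusted p under 0.05, an absolute log2 change of at least 0.5, no overlap of libraries and at least 5 CPM in a comparison with control, and at most 3 genes with the smallest p are named per list. All 148 listed symbols matched the table, partly through older names.

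Lengths are those of the longest GENCODE 29 transcript, and promoter windows come from RefSeq. The promoters shown were picked after their values were seen, and stretches that hold no motif or touch an exon of a protein-coding gene were left out. MVK, ELOVL5 and ACSL1 were also looked at but had no stretch left to show. Alternatives were DESeq2 1.42.0, other size factors, filters, samples and covariates, a length correction, thinned libraries and leaving out each library. Depth limits the rarer members most, such as ELOVL6, with group means of 7.93 to 12.9 CPM.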

Additional observations from a re-analysis of the deposited data

Results flagged for a closer look

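For 18 members the effect of the Msi1 shRNA differed between cells with and without the Msi2 shRNA, by the test of that difference in the fit across all genes (adjusted p below 0.05). The difference is the effect of the Msi1 shRNA with the Msi2 shRNA minus its effect alone, in log2. Any effect of carrying both viruses or of sorting for both tags is part of it and was not tested. Over all genes, 40.3% met the same criterion, so the count of 18 of 38 members is near the background.

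The difference was positive for ACAT2 (0.83), HMGCS1 (0.71), MVK (0.49), PMVK (0.52), MVD (0.52), IDI1 (0.92), FDPS (0.53), FDFT1 (0.74) and LSS (0.59) in sterol synthesis. It was positive too for ACLY (0.60), ACSS2 (0.64), ACSL1 (0.65) and ACSL4 (0.25) among the fatty acid genes. The ACSL4 value was 0.09 and not called with the library trend as a covariate, and its call was lost in 8 other settings. It was negative for CYP51A1 (-0.56), SREBF1 (-0.50), SCAP (-0.49), ELOVL1 (-0.50) and ELOVL5 (-0.75). Of the 18 calls, 10 were kept under every alternative tried and 8 were lost under at least 1. The double knockdown libraries also differ from the others in their library trend and their relation of level to length. In neither measure do these libraries overlap the others, so the covariate and the length correction cannot separate the measures from the double knockdown. The part of the measures in the differences thus cannot be told apart from that of the shRNAs.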

How the results depend on the processing

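Under every alternative tried, 24 of the 31 member calls of the Msi1 knockdown against control, 12 of 16 of the Msi2 knockdown and 18 of 28 of the double knockdown were kept. The counts of these 3 comparisons stayed within 1.5 times of those reported. Of the calls between knockdowns, 23 of 28 (Msi2 against Msi1), 10 of 24 (double against Msi1) and 7 of 25 (double against Msi2) were kept. With the library trend as a covariate, members lower in double against Msi1 went from 6 to 0, members higher and lower in double against Msi2 from 6 and 19 to 0 and 8, and negative departures from additivity from 5 to 1. Calls over all genes fell as well in that fit, in double against Msi1 from 4486 higher and 3933 lower to 400 and 318. In double against Msi2 they went from 3413 and 3379 to 1238 and 1459, and negative departures from 2866 to 409. Signs turned in that fit for ACAT2 in double against control (-0.026), for PMVK (-0.23), SCAP (0.037), ACACB (0.014), ME1 (-0.056), SCD5 (0.015) and ACSL3 (0.077) in double against Msi1, for FDFT1 in double against Msi2 (-0.029) and for the departure of PMVK (-0.035). With the length correction EBP in double against Msi1 turned to -0.0028. None of these turned values was called, and the cause was not tested. Members lower in Msi2 against Msi1 went from 2 to 1 with no filter and with the compared groups only. Leaving out 1 library gave 1 to 2 for that count, 3 to 8 for members lower in double against Msi1, 2 to 7 for members higher in double against Msi2 and 5 to 10 for negative departures.

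The replicate block, with the number in the titles as a term, gave 6 higher and 25 lower, 12 and 7, and 12 and 16 members in the Msi1, Msi2 and double knockdowns against control. It gave 29 and 2 in Msi2 against Msi1, 20 and 7 in double against Msi1, 7 and 20 in double against Msi2 and 14 and 6 for the departure. The numbers were not taken to pair the libraries, as the labels state no pairing. Deviations from the group means had a median correlation of 0.156 in the 18 same-number pairs, against -0.101 in the other 36 pairs. Of the same-number pairs 10 were above 0.1 (range -0.538 to 0.695), and 7 of 12 libraries correlated best with their own number. Whether the numbers mark libraries made together was not tested.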
